A study of Homo sapiens with 8 samples.

Results

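The UDP-glucuronosyltransferases (UGT) and sulfotransferases (SULT) are the main conjugating enzymes of the liver. From 58735 genes measured in HepG2, a long-used cell line from a human liver carcinoma, 10 of their genes were taken by name, 8 UGT and 2 SULT. The members are UGT2B4, UGT2B7, UGT2B10, UGT2B11, UGT2B15, UGT1A1, UGT1A6, UGT1A9, SULT1A1 and SULT2A1. One group of 4 libraries came from cells infected with a control lentivirus, labelled WT in genotype. The other 4 came from cells made to overexpress DNMT3A by lentivirus. DNMT3A is an enzyme that places new methyl groups on CpG cytosines. The library names of both groups carry the vector name pLV_EGFP, followed by NC or DN. The sources used here do not say whether a group is a pool or a single clone, or which promoter drives the transgene.

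UGT enzymes sit in the membrane of the endoplasmic reticulum and attach glucuronic acid, taken from UDP-glucuronic acid, to bilirubin, bile acids, steroids and drugs. SULT enzymes work in the cytosol and attach sulfate, taken from the donor PAPS, to phenols, steroids and bile acids. Both reactions make lipophilic compounds soluble, so that transporters can move them into bile or blood. The UGT2B genes are separate copies side by side on chromosome 4. The UGT1A genes of chromosome 2 each have a first exon of their own and share their later exons.

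Values are FPKM, fragments per kilobase of gene length scaled to a total set for each library, given as mean ± SD with n = 4 per group. Ratios of reads per library total use the recovered reads instead. A log2 fold change is the DNMT3A mean of log2(FPKM + 1) less the control mean, with its standard error (SE). Adjusted p comes from limma, corrected over all tested genes by the Benjamini-Hochberg method. Genes with a mean of at least 1 FPKM over the 8 libraries were tested, and an adjusted p under 0.05 was called. Each library held 15911019 to 17677093 recovered reads. DNMT3A was at 3.45 to 3.89 FPKM in the controls and at 7.26 to 10.2 FPKM in the DNMT3A libraries (two-sided exact permutation p = 0.0286, which no arrangement of the 70 can go below). All 8 hepatocyte markers had a mean over 1 FPKM, while 0 of 5 fibroblast, 0 of 4 endothelial, 0 of 5 blood and 0 of 3 neural markers did. Of the defining markers of those other types, LUM, KDR, PTPRC, CD3E and HBB were at 0 in all libraries. The summed hepatocyte markers ranged from 9030 to 9531 FPKM in the controls and from 8603 to 11270 FPKM in the DNMT3A libraries, and the part of this in the results was not tested. In bulk RNA, fewer expressing cells and less RNA per cell cannot be told apart.

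Promoter sequences are described because the overexpressed enzyme acts on CpG pairs. Any link between these sequences and the levels was not tested. RefSeq's table (GRCh38.p14) held an entry for 8 of the 10 members, and not for UGT2B4 or SULT1A1. The 250 bases before the start are shown for UGT2B10 and UGT2B11, which are close copies and were both higher with DNMT3A. They are followed by UGT2B7 and SULT2A1, which did not pass the test, and by UGT1A1, the bilirubin enzyme. Capitals mark each CG pair and each TATAA on the printed strand, 5′ to 3′.
UGT2B10 (chr4:68815744-68815993, plus strand): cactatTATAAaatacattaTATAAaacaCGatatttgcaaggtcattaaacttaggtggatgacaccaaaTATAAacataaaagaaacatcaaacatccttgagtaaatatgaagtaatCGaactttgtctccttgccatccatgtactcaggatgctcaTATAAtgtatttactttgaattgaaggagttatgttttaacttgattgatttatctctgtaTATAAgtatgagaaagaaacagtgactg
UGT2B11 (chr4:69214749-69214998, minus strand): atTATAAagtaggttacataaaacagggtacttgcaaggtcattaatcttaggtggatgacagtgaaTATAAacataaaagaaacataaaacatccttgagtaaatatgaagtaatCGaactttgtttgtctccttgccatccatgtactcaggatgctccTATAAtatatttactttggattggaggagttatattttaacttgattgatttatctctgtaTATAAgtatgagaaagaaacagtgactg
UGT2B7 (chr4:69096224-69096473, plus strand): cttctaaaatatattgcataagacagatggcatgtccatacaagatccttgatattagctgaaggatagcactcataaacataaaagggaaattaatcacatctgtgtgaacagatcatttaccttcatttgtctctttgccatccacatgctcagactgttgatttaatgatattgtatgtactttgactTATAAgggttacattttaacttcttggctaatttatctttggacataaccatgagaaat
SULT2A1 (chr19:47886316-47886565, minus strand): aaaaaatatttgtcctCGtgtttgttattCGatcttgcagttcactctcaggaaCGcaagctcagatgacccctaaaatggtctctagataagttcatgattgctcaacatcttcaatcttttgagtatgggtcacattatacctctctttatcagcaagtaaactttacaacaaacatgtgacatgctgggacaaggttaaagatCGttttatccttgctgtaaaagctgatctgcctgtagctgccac
UGT1A1 (chr2:233760020-233760269, plus strand): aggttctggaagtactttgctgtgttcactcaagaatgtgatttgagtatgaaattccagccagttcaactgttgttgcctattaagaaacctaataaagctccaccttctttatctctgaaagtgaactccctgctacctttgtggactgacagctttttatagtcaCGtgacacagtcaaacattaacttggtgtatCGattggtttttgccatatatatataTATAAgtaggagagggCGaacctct

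These windows held few CpG pairs. UGT2B10 had 2, UGT2B11 had 1, UGT2B7 had 0, UGT1A1 had 3 and SULT2A1 had 4, against a median of 11 over 35116 promoters in the table. UGT2B15 had 0, UGT1A9 had 1, and the 2 entries of UGT1A6 had 4 and 2. A count of 4 or fewer was found in 34.3% of all promoters and a count of 0 in 6.06%. DNA methylation itself is not measured in the values used here. In a global alignment, the windows of UGT2B10 and UGT2B11 were identical at 90.2% of alignment columns. UGT2B7 matched UGT2B10 at 62.7% and UGT2B11 at 63.7%. UGT2B15 matched UGT2B10 at 68.7%, UGT2B11 at 70.9% and UGT2B7 at 58.4%.

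Motifs were searched by their letters on both strands. TATAA lay in 7 of the 9 member promoters and in 18.9% of all promoters. G and C made up 28.4% (UGT2B15) to 57.6% (1 UGT1A6 entry) of the member windows, against a median of 58% over all promoters. The part of this base content in the TATAA count was not tested. The nuclear receptor motif AGGTCA lay in 3, those of UGT2B10, UGT2B11 and UGT2B15, and in 12.1% of all. The HNF1 motif GTTAAT lay in 2, those of UGT1A1 and of 1 UGT1A6 entry, and in 6.23% of all. The forkhead motif TGTTTAC lay in that of UGT2B15 alone among the members and in 2.98% of all. The AHR core GCGTG lay in 2, those of UGT1A9 and of the other UGT1A6 entry, and in 32.2% of all. None of these motifs contains another, and a match is a description of letters only.

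The 10 genes spanned a wide range of levels. By FPKM, SULT2A1 was the highest in both groups, followed in the controls by UGT2B7, UGT2B10 and SULT1A1. The other 6 members each had a control mean of at most 0.469 FPKM. This order depends on the gene length used. SULT1A1 was divided by 8909 exon bases, though its longest coding transcript has 1871. It had 5944 control reads, against 3407 for UGT2B7 and 2577 for UGT2B10, which were divided by 2259 and 1931 bases. The filter was passed by 5 members, UGT2B4, UGT2B7, UGT2B10, SULT1A1 and SULT2A1. Of these 3 were called, where 20.6% of all tested genes were: 2 rose, where 9.93% of the 11620 did, and 1 fell, where 10.6% did. The groups did not overlap for the 2 that rose, as for 12.1% of tested genes with DNMT3A higher, or for the 1 that fell, as for 13% with DNMT3A lower. The median log2 fold change of the 5 was 0.04, against -0.01 over all tested genes. UGT2B4 passed the filter only through the DNMT3A libraries, so these counts describe the genes and carry no test.

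**Figure D1:**
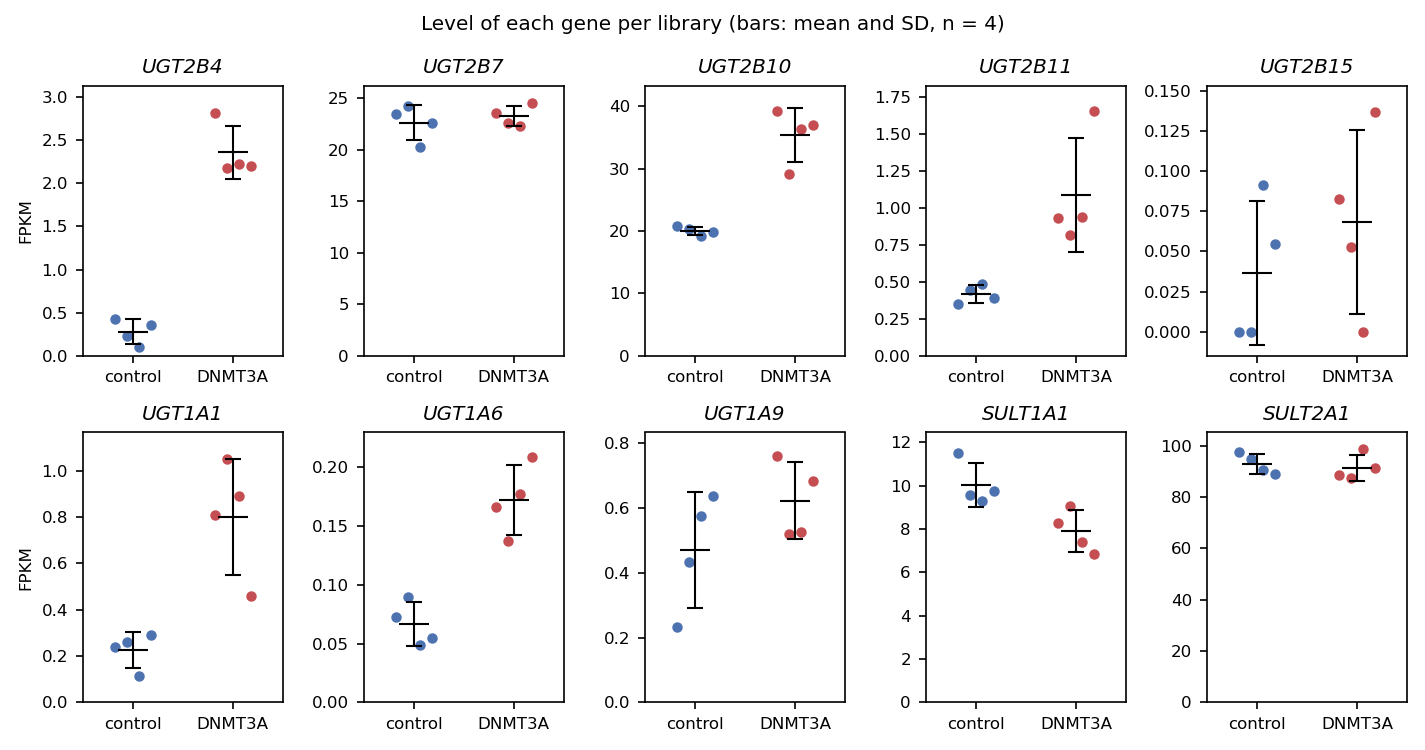
FPKM (vertical axes, each with its own scale) of the 10 genes in 4 control and 4 DNMT3A libraries; points are libraries and bars the mean and SD. The groups do not overlap for UGT2B4, UGT2B10, UGT2B11, UGT1A1 and UGT1A6, which were higher with DNMT3A, or for SULT1A1, which was lower, while UGT2B7, UGT2B15, UGT1A9 and SULT2A1 overlap.

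UGT2B4, which glucuronidates bile acids and catechol oestrogens, showed the largest fold change among the members, from a low level. Its level (ENSG00000156096, hg38 chromosome 4, 69480165 to 69526014, minus strand) was 0.426, 0.232, 0.101 and 0.363 FPKM in control libraries 1 to 4, and 2.81, 2.18, 2.23 and 2.20 FPKM in DNMT3A libraries 1 to 4. Every DNMT3A library was above every control, and the first DNMT3A library was the highest. The reads behind these values were 17, 10, 4 and 16 in the controls and 123, 100, 97 and 97 with DNMT3A. The mean went from 0.280 ± 0.144 to 2.35 ± 0.305 FPKM, a log2 fold change of 1.39 (SE 0.11, limma adjusted p = 7.54e-05).

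That fold change depends on the pseudocount, because the control level is far below 1 FPKM. It was 2.77 with a pseudocount of 0.1 and 3.19 with limma voom on the recovered reads. The ratio of the mean FPKM was 8.40, and the ratio of reads per library total was 8.48, with a 95% exact interval of 6.26 to 11.7 that covers counting error only. On the log2(FPKM + 1) scale UGT2B4 ranked 6 among the 1020 protein-coding genes called up. Of 252 tested genes with a control mean under 1 FPKM and a DNMT3A mean of at least 1 FPKM, 83 were called up. UGT2B4 is among the 252, so its rank and adjusted p are given as a description. The gene shared 0 of its annotated exon bases with another gene, and 0 of 2004 windows of 100 bases in its longest coding transcript occurred in a transcript of another gene.

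UGT2B10, which attaches glucuronic acid to the nitrogen of amines such as nicotine, also rose, from a much higher level. It (ENSG00000109181, chromosome 4, 68815993 to 68831196, plus strand) was at 20.8, 20.3, 19.3 and 19.8 FPKM in control libraries 1 to 4, and at 39.2, 29.1, 36.4 and 36.9 FPKM in DNMT3A libraries 1 to 4. The controls were tightly grouped, and the lowest DNMT3A library, the second, was still above all of them. The mean went from 20.1 ± 0.654 to 35.4 ± 4.37 FPKM, a log2 fold change of 0.78 (SE 0.09, limma adjusted p = 0.00046). Its rank was 58 among the 1020 protein-coding genes called up.

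UGT2B7, the broad enzyme of opioids, bile acids and steroids, did not pass the test. Its level (ENSG00000171234, chromosome 4, 69051363 to 69112987, plus strand) was 23.4, 24.2, 20.3 and 22.6 FPKM in the controls and 23.6, 22.6, 22.3 and 24.5 FPKM with DNMT3A, so the groups overlap throughout. The log2 fold change was 0.04 with a 95% interval of -0.10 to 0.18 (limma adjusted p = 0.691). That interval lies below the whole interval of UGT2B10, which was 0.59 to 0.97.

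The order of these neighbouring enzymes differed between the groups. The ratio of UGT2B10 FPKM to UGT2B7 FPKM was 0.838 to 0.949 in the 4 controls and 1.29 to 1.66 in the 4 DNMT3A libraries. UGT2B7 was thus the higher in every control and UGT2B10 the higher in every DNMT3A library. The UGT2B members summed to 43.4 ± 2.28 FPKM in the controls and 62.1 ± 5.34 FPKM with DNMT3A. These ratios and sums were chosen after the levels were seen and are given without a test. The group ranges of the FPKM values of both genes met only in the controls, where UGT2B7's lowest value of 20.3 FPKM lay under UGT2B10's highest of 20.8 FPKM.

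**Figure D2:**
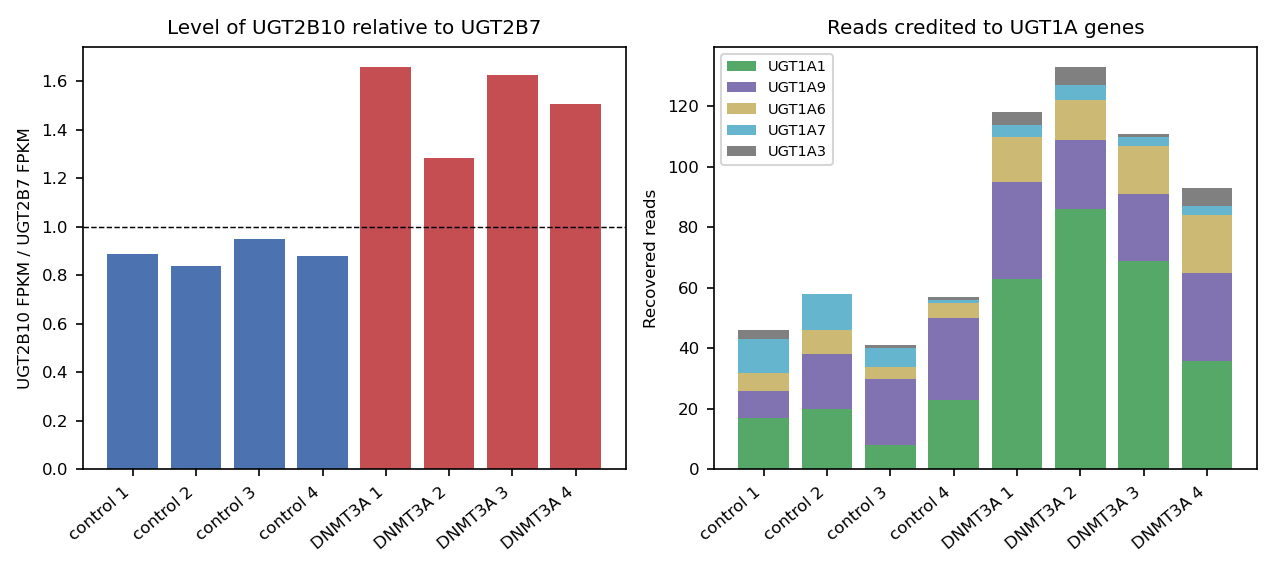
Left, ratio of UGT2B10 FPKM to UGT2B7 FPKM in each library, with a dashed line at equal levels; right, recovered reads credited to 5 UGT1A genes, stacked, in each library. All 4 control ratios lie under the line and all 4 DNMT3A ratios above it, and the UGT1A total is 41 to 58 reads in the controls and 93 to 133 reads in the DNMT3A libraries.

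UGT2B11, a close copy of UGT2B10 reported to act on hydroxy fatty acids, lay under the filter. Its level (ENSG00000213759, chromosome 4, 69199951 to 69214731, minus strand) was 0.349, 0.447, 0.486 and 0.388 FPKM in the controls and 0.930, 0.817, 0.934 and 1.65 FPKM with DNMT3A. The groups did not overlap, and the fourth DNMT3A library was well above the other three. The means were 0.417 ± 0.0609 and 1.08 ± 0.383 FPKM, from 65 and 179 reads in all. With the filter lowered to a mean of 0.1 FPKM it rose (log2 fold change 0.54, limma adjusted p = 0.0231, with 5.43% of 19322 genes called up). Without any filter, where 2.66% of genes were called up, the adjusted p was 0.0564. Of the windows of 100 bases in its transcript 17.4% occurred in transcripts of other genes, 11.2% in AC111000.4 and 2.51% in UGT2B10. AC111000.4 lies on the opposite strand and overlaps 17.9% of the exon bases of UGT2B11, and counting without strand cannot separate them.

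UGT2B15, the androgen enzyme, was barely present. It (ENSG00000196620, chromosome 4, 68646630 to 68670628, minus strand) had 0, 0, 3 and 2 reads in the controls and 3, 2, 0 and 5 reads with DNMT3A. The groups overlap, and the ratio of reads per library total was 1.91 with a 95% counting interval of 0.595 to 7.13. No difference was detectable at this depth.

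UGT2A3, a glucuronosyltransferase of bile acids, lies on chromosome 4 between UGT2B10 and UGT2B7 and did not pass the test. It was at 45.0 ± 2.29 and 49.8 ± 6.63 FPKM (log2 fold change 0.13, limma adjusted p = 0.331). It passed the threshold without DNMT3A library 2 (log2 fold change 0.23, adjusted p = 0.0373). Of 31 protein-coding genes that start within 1 Mb of the block, members left out, 4 were tested and 0 were called by limma. Over all tested genes 20.6% were called. YTHDC1, a reader of methylated RNA and the nearest tested gene on the UGT2B15 side, had a log2 fold change of -0.06, and ODAM, the nearest beyond UGT2B4, one of 0.17. SULT1E1, the oestrogen sulfotransferase, is 1 of these 31 neighbours, 334.1 kb outside the block beyond UGT2B4, and had 1, 4, 1 and 2 reads in the controls and 12, 5, 12 and 13 with DNMT3A. It was named after its values were seen. Its adjusted p was 0.0463 without a filter and 0.0582 with the filter at 0.1 FPKM.

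**Figure D3:**
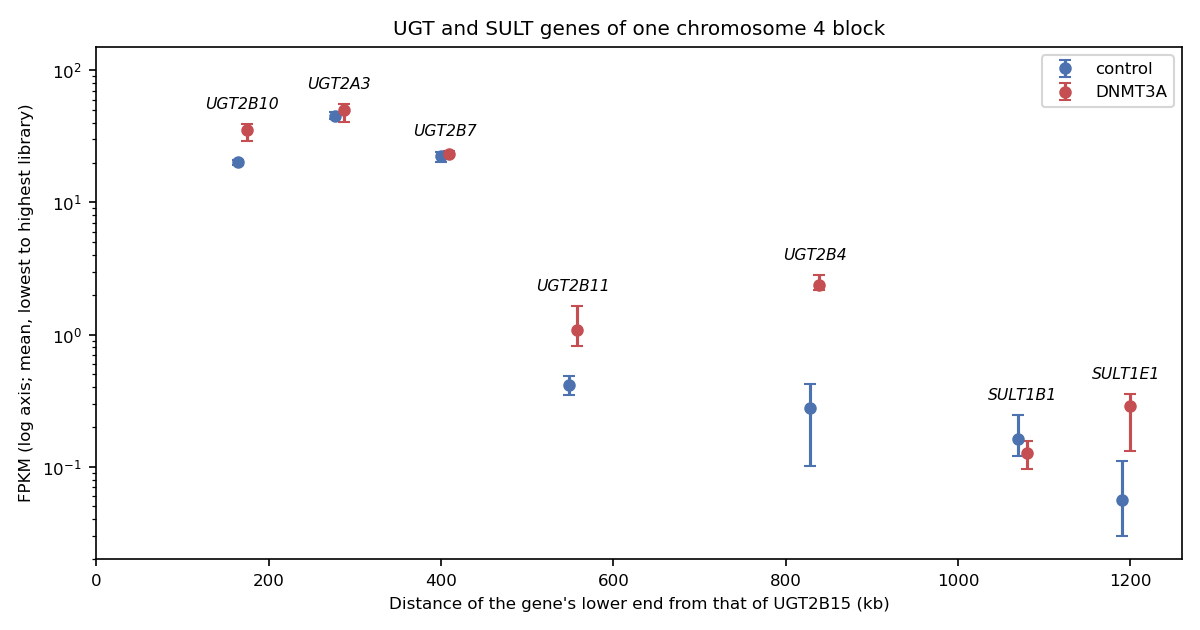
FPKM on a log axis of UGT and SULT genes with reads in all 8 libraries against their distance in kb from the lower end of UGT2B15; points are group means and bars run from the lowest to the highest library. UGT2B10, UGT2B11, UGT2B4 and SULT1E1 have separate groups with DNMT3A higher, while UGT2A3, UGT2B7 and SULT1B1 between them overlap.

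The UGT1A genes were low in all libraries. UGT1A1, which clears bilirubin, was at 0.239, 0.260, 0.113 and 0.292 FPKM in the controls and at 0.808, 1.05, 0.889 and 0.458 FPKM with DNMT3A (ENSG00000241635, chromosome 2, 233760248 to 233773299, plus strand). All DNMT3A libraries were above all controls, the fourth by the smallest margin. The reads were 17, 20, 8 and 23 against 63, 86, 69 and 36, a ratio per library total of 3.57 with a 95% counting interval of 2.72 to 4.74. It rose with the filter at 0.1 FPKM (log2 fold change 0.55, limma adjusted p = 0.0166) and without a filter (adjusted p = 0.0369).

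UGT1A6, an enzyme of small planar phenols and serotonin, was lower still. It (ENSG00000167165, chromosome 2, 233691607 to 233773300, plus strand) had 6, 8, 4 and 5 reads in the controls and 15, 13, 16 and 19 with DNMT3A, so the groups do not overlap. Its means were 0.0665 ± 0.0185 and 0.172 ± 0.0296 FPKM. The call depended on the setting: limma's adjusted p was 0.202 with the filter at 0.1 FPKM and 0.0338 without a filter. UGT1A9, an enzyme of bulky phenols such as propofol, had 9, 18, 22 and 27 reads in the controls and 32, 23, 22 and 29 with DNMT3A (ENSG00000241119, chromosome 2, 233671853 to 233773300, plus strand). Its groups overlap, at 0.469 ± 0.178 and 0.621 ± 0.119 FPKM (limma adjusted p = 0.416 with the filter at 0.1 FPKM).

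Of the 4 members with a mean from 0.1 to 1 FPKM, 3 had groups that did not overlap, with DNMT3A higher; 5.38% of the 7702 genes in that range did. A gene can enter that range through either group, so this count is a description. UGT1A6, with a control mean of 0.0665 FPKM, entered it only through the DNMT3A libraries. When limma voom was run on the recovered reads of genes with a mean of at least 0.1 FPKM, a choice made after the data were seen, 6 of 9 members were called, where 15% of genes were. UGT2B4, UGT2B10, UGT2B11 (log2 fold change 1.32, adjusted p = 0.00447), UGT1A1 (1.82, adjusted p = 0.00101) and UGT1A6 (1.34, adjusted p = 0.0229) rose, where 8.63% of 19322 genes did. SULT1A1 fell (adjusted p = 0.0215), where 6.41% did. For UGT1A6, limma without voom gave an adjusted p of 0.202 at the same filter. As it passed that filter only through the DNMT3A libraries, its call and these counts are given as a description.

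The shared exons limit what the UGT1A values mean. The 9 annotated UGT1A genes have 1478 exon bases in common, in 4 blocks between 233767034 and 233773299 on chromosome 2. Overlap with other genes covered 49.9% of the exon bases of UGT1A1, 64.4% of UGT1A6 and 61.2% of UGT1A9. UGT1A4, UGT1A5, UGT1A8 and UGT1A10 contain the common blocks and had 0 reads in all 8 libraries. No read in the common blocks was thus credited to these 4 genes, while the length that divides the FPKM includes those blocks. All UGT1A genes together had 46, 58, 41 and 57 reads in the controls and 118, 133, 111 and 93 with DNMT3A. UGT1A1 made up 32.8% ± 9.20 of these in the controls and 54.7% ± 11.7 with DNMT3A (SD, n = 4). These shares overlap, with control library 4 at 40.35% and DNMT3A library 4 at 38.71%. UGT1A7 had 30 reads in the controls and 15 with DNMT3A, and its groups overlap. Of the 8 tested genes that start within 1 Mb of the UGT1A block 2 were called up and 1 down by limma. Over all tested genes these shares were 9.93% and 10.6%. Among these 8 neighbours USP40, a deubiquitinase and the nearest on one side, had a log2 fold change of 0.02. HJURP, a centromere chaperone and the nearest on the other, rose (log2 fold change 0.18, limma adjusted p = 0.0414).

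SULT2A1, which sulfates dehydroepiandrosterone and bile acids, was the most abundant member and did not pass the test. Its level (ENSG00000105398, chromosome 19, 47870466 to 47886397, minus strand) was 97.5, 94.8, 90.4 and 88.9 FPKM in the controls and 88.4, 87.2, 98.6 and 91.2 FPKM with DNMT3A. The groups overlap almost fully. The log2 fold change was -0.02 with a 95% interval of -0.16 to 0.11 (limma adjusted p = 0.803).

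SULT1A1, the sulfotransferase of simple phenols, fell slightly. It (ENSG00000196502, chromosome 16, 28605196 to 28623625, minus strand) was at 11.5, 9.58, 9.30 and 9.75 FPKM in the controls and at 8.29, 9.06, 7.43 and 6.83 FPKM with DNMT3A. The groups did not overlap, by a small gap between the third control and the second DNMT3A library. The log2 fold change was -0.31 (SE 0.09, limma adjusted p = 0.0383). Leaving out any 1 control library, or DNMT3A library 1, 3 or 4, ended the call (adjusted p = 0.0566 to 0.0984). It was also lost with the filter at 0.1 FPKM (0.0649) and without a filter (0.113). Of the windows of 100 bases in its transcript 8.47% occurred in other genes, mainly SULT1A3 and SULT1A4. Its neighbour SULT1A2, another phenol sulfotransferase, was at 8.37 ± 0.633 and 7.72 ± 1.58 FPKM and did not pass the test (log2 fold change -0.12, limma adjusted p = 0.507).

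The order of levels by FPKM in the controls was SULT2A1, UGT2B7, UGT2B10, SULT1A1, UGT1A9, UGT2B11, UGT2B4, UGT1A1, UGT1A6 and UGT2B15. Neighbours in that order whose library ranges overlapped were UGT2B7 and UGT2B10, the run from UGT1A9 through UGT2B11 and UGT2B4 to UGT1A1, and UGT1A6 with UGT2B15. With DNMT3A the order was SULT2A1, UGT2B10, UGT2B7, SULT1A1, UGT2B4, UGT2B11, UGT1A1, UGT1A9, UGT1A6 and UGT2B15. There the ranges of UGT2B11, UGT1A1 and UGT1A9 overlapped each with the next. UGT2B4 moved from place 7 to place 5. The place of SULT1A1 depends on the gene length used.

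Most other genes of both families were near or at 0. Of 25 further UGT and SULT genes 2 passed the filter, UGT2A3 and SULT1A2, and 0 were called by limma, with 0 at an unadjusted p under 0.05. A further 9 had no read in any library. SULT2B1, a cholesterol sulfotransferase named after its values were seen, had 5, 5, 15 and 7 reads in the controls and 0, 3, 2 and 3 with DNMT3A. Its limma adjusted p was 0.228 with the filter at 0.1 FPKM, and 0.0405 with voom on the recovered reads.

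Most genes that supply the donors of both reactions did not pass the test. Of 12 listed 11 were tested; 3 were called, 1 up and 2 down, where 20.6% of all tested genes were called. The 11 had a median log2 fold change of -0.11. UGDH, which makes UDP-glucuronic acid, was at 148 ± 7.27 and 137 ± 8.13 FPKM and did not pass the test (limma adjusted p = 0.213). UGP2, which makes UDP-glucose before it, had one of -0.18 (adjusted p = 0.128). SLC26A1, a sulfate exchanger, fell from 8.54 ± 0.729 to 5.08 ± 0.935 FPKM (log2 fold change -0.66, SE 0.11, limma adjusted p = 0.00345). SLC35B3, which carries PAPS into the Golgi, fell (log2 fold change -0.24, adjusted p = 0.0358). BPNT1, which breaks down the spent sulfate donor, rose from 12.2 ± 0.919 to 15.3 ± 1.05 FPKM (log2 fold change 0.31, limma adjusted p = 0.0126). PAPSS2, a PAPS synthase below the filter and named after its values were seen, had 2, 4, 2 and 4 reads in the controls and 13, 9, 11 and 11 with DNMT3A, with no overlap (limma adjusted p = 0.0185 without a filter). SLC35B3 lost its call when control 2 or 3, or DNMT3A 1, 2 or 3, was left out (0.0645 to 0.102), with both lower filters (0.0556 and 0.0831) and with voom (0.0576).

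Of 6 genes of deconjugation, the hydrolases that remove glucuronic acid or sulfate and the factors that activate sulfatases, all 6 were tested. By limma 0 were called, and 0 had an unadjusted p under 0.05. ARSB, an arylsulfatase, had a log2 fold change of -0.07 and SUMF2, a relative of the sulfatase activator, one of 0.10. With array weights GUSB, the lysosomal beta-glucuronidase, named after its values were seen, passed the threshold (log2 fold change -0.14, adjusted p = 0.0441).

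Transporters of conjugates went both ways. Of 9 listed 6 were tested; 3 fell, where 10.6% of all tested genes did, and 1 rose, where 9.93% did. The 6 had a median log2 fold change of -0.14. SLCO2B1, an uptake carrier of sulfated steroids, fell from 2.33 ± 0.0765 to 1.58 ± 0.120 FPKM (log2 fold change -0.37, limma adjusted p = 0.00553). ABCC3, which exports glucuronides to the blood, fell from 6.34 ± 0.314 to 4.88 ± 0.387 FPKM (log2 fold change -0.32, limma adjusted p = 0.00792). ABCC4, another exporter on that side, fell (log2 fold change -0.25, adjusted p = 0.0318), and ABCG2, an exporter of sulfates, rose (log2 fold change 0.27, adjusted p = 0.0191). ABCC2, the exporter to bile, was at 55.4 ± 6.77 and 54.3 ± 6.16 FPKM and did not pass the test, nor did ABCC1 (log2 fold change 0.02). Leaving out 1 library ended the call of ABCC4 (any control, or DNMT3A 3 or 4, 0.0540 to 0.0890) and of ABCG2 (control 2 or 3, or DNMT3A 1, 0.0503 to 0.0546). ABCC4 was also lost without a filter (0.0750).

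Of 18 transcription factors known to act on UGT and SULT genes 16 were tested; 4 rose, where 9.93% of all tested genes did, and 1 fell, where 10.6% did. The 16 had a median log2 fold change of 0.09. CEBPA, a factor of mature hepatocytes, fell from 45.3 ± 4.76 to 23.1 ± 4.98 FPKM (log2 fold change -0.96, limma adjusted p = 0.00199). NR0B2, a repressor induced by bile acids, rose from 34.5 ± 3.67 to 54.6 ± 3.48 FPKM (log2 fold change 0.65, limma adjusted p = 0.000971). FOXA3, a liver forkhead factor (log2 fold change 0.38), AHR, the receptor of planar aromatic compounds (0.34), and POU2F1, a widespread homeodomain factor (0.32), rose. NFE2L2, the oxidant response factor (0.07), and HNF4A, a nuclear receptor of hepatocytes (0.18), did not pass. The calls of AHR (0.0530 to 0.0632) and FOXA3 (0.0543) were lost by leaving out 1 library, control 1, 2 or 4 or DNMT3A 1 or 3 for AHR and control 3 for FOXA3. Both were lost without a filter (0.0785 and 0.0632). HNF4A passed the threshold without DNMT3A library 4 (adjusted p = 0.0149).

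**Figure D4:**
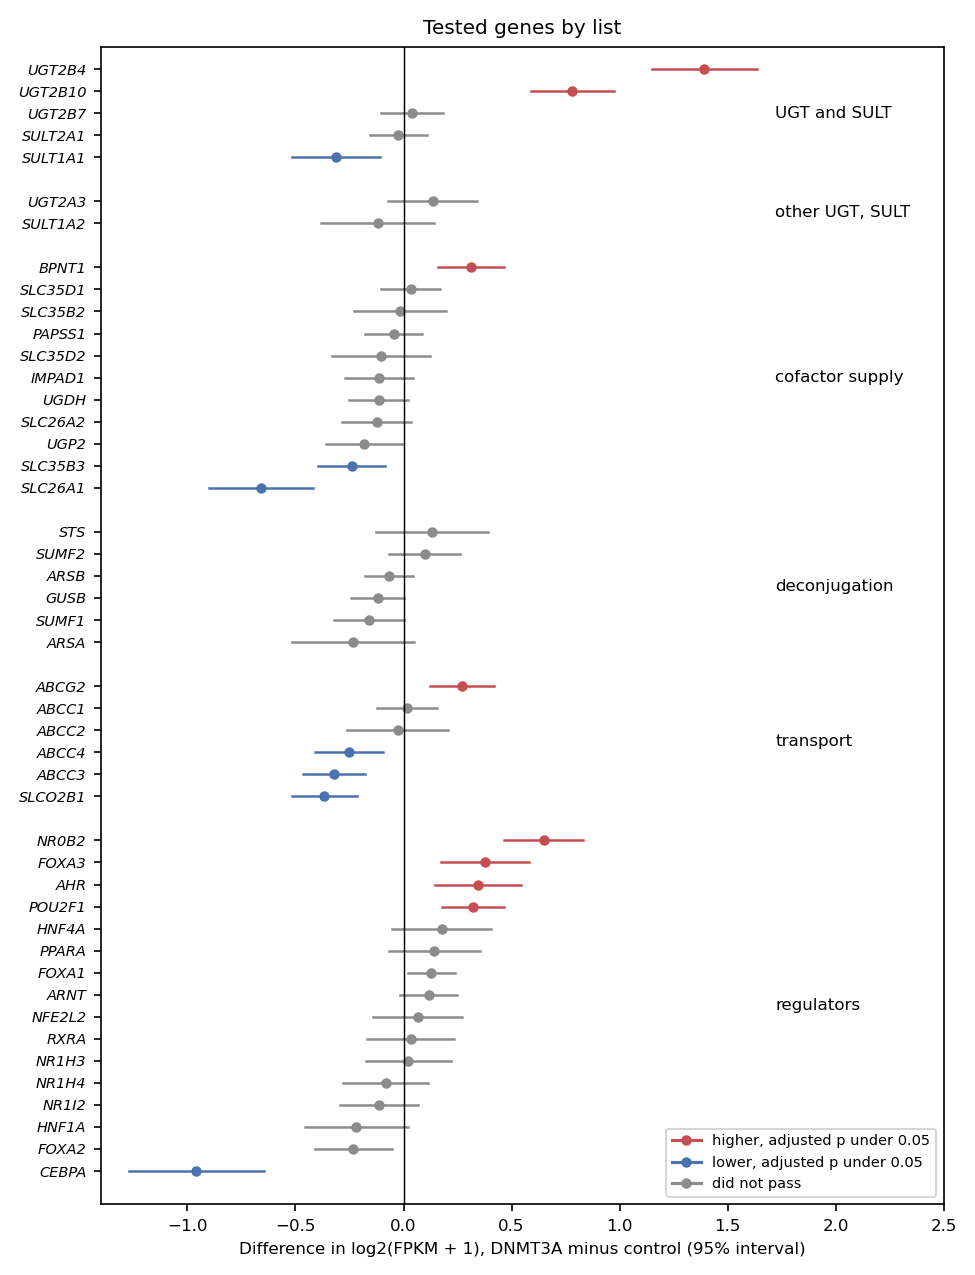
Difference in log2(FPKM + 1), DNMT3A minus control, of every tested gene of the 6 lists, with 95% intervals from limma; red and blue mark genes called higher and lower, and grey those that did not pass. UGT2B4 at 1.39 and UGT2B10 at 0.78 lie farthest to the right, and CEBPA at -0.96 farthest to the left.

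Likeness of pattern was measured as Pearson's r of log2(FPKM + 1) over the 8 libraries, for the 2 tested protein-coding genes nearest to each tested member. With 2 groups in the 8 points, r is high for any pair of genes that differ between the groups. The nearest genes are also the highest of all tested protein-coding genes. A high r over 8 libraries can thus arise by chance for any member, and none was tested. UGT2B4 was nearest to STOM, a membrane scaffold protein (r = 0.996), and NT5E, an ectonucleotidase (r = 0.993). UGT2B10 was nearest to LRIG3, a membrane protein, and PCK1, the gluconeogenic enzyme (both r = 0.994). SULT1A1 was nearest to TIMM44 and DLX6 (both r = 0.984). Among the members that did not pass the test, SULT2A1 was nearest to PAPSS1, a PAPS synthase (r = 0.954), and then to RPS19 (r = 0.901). PAPSS1 was at 27.1 ± 1.26 and 26.2 ± 1.46 FPKM. UGT2B7 was nearest to POLR3GL (r = 0.893) and NDUFB8 (r = 0.855).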

How the data were processed

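Poly(A) RNA of 8 HepG2 libraries was sequenced. The submitters' processing notes name HISAT2 2.0.5 and hg38; the counting program is not given in the sources used here. FPKM values were deposited as 1 table, per the file headers, whose 58735 gene coordinates were identical to GENCODE release 29. In all libraries 100% of FPKM values times gene length were whole multiples of a single step (within 0.01 of a read), which gave the recovered reads. Libraries of a group differed by a chi-square of 4.26 to 21.7 per degree of freedom, so none was a duplicate. The total implied by that step was not the sum of recovered reads. It was above that sum in control library 2 and DNMT3A libraries 2 to 4, and slightly below it in the others. The gap was widest in DNMT3A library 2, at 1.83e+07 against 17626137 recovered reads. How the total was set is not given in the sources used here. An FPKM also moves with the total it is divided by, which abundant genes can change.

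Groups came from sample titles. limma 3.58.1 in R 4.3.3, with an intensity trend, tested log2(FPKM + 1) of the 11620 genes whose mean reached 1 FPKM, with Benjamini-Hochberg adjustment, after tests on simulated data. The labels name no separate cultures, so p-values measure only how these libraries vary, and that spread may be technical.

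The members and lists were chosen with earlier results of these data known. Besides members and DNMT3A, the text names list genes past the threshold, up to 2 others per list with the highest mean, the nearest tested neighbours and the 2 most similar genes per tested member; other names were chosen after their values were seen. Intervals on reads are exact binomial ones at 95%. The alternatives were another pseudocount, lower filters, 2 other scalings (median ratio and quantile), a fit without the trend, one with array weights, one with replicate number as a block, voom, protein-coding genes only, and leaving out each library. Voom with the filter at 0.1 FPKM was added after the data were seen.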

Additional observations from a re-analysis of the deposited data

Results flagged for a closer look

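In 68 groups of 4 libraries, 1 per gene and group, 4 had a library whose gap to the nearest other, as a share of the group's range, exceeded Dixon's critical value at 95%. Chance gives about 1 such group in 20. UGT2B4 was at 2.81 FPKM in DNMT3A library 1, above the other three. UGT2B11 was at 1.65 FPKM in DNMT3A library 4. NR0B2 was at 59.8 FPKM in DNMT3A library 3, also above its group. POU2F1 was at 3.01 FPKM in control library 1, below the other controls.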

How the results depend on the processing

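UGT2B4 and UGT2B10 kept their direction and their call in all 18 alternatives other than the added voom fit, with adjusted p up to 0.00134 and 0.00378. UGT2B4 passed the filter of 1 FPKM only through the DNMT3A libraries, so its calls are a description. The count of called members was 2 to 3 when 1 library was left out. It was 6 (5 up, 1 down) with voom at the lower filter, where 15% of genes were called. It was 4, all up, both with the filter at 0.1 FPKM and without a filter, against 2 up and 1 down in the main test. Of all genes 5.43% were called up with the filter at 0.1 FPKM and 2.66% without a filter. The members called differed, with UGT2B11 only at 0.1 FPKM and UGT1A6 only without a filter. Over all genes the count of calls was 2389, against 3756 with array weights and 1508 to 2443 when 1 library was left out (1508 without control 3, 1551 without control 2). Further UGT and SULT genes gave 1 call without a filter, 2 with voom at the lower filter and 0 to 1 when leaving out a library. Deconjugation gave 1 with array weights, conjugate transport 2 to 4 when leaving out a library, and regulators 3 without a filter. Reversals were all of genes that did not pass: UGT2B7 without control 3 (-0.00834; range over left-out libraries -0.00834 to 0.0724), SULT2A1 with quantile normalization (0.026) and array weights (0.0415), ABCC1 with array weights (-0.0206) and without DNMT3A 2 (-0.0367 to 0.0432), ABCC2 with quantile normalization (0.0512) and without control 4 or DNMT3A 1 (-0.118 to 0.0175), and NFE2L2 without DNMT3A 4 (-0.00619 to 0.14). The cause was not tested. Deviations from the group means of libraries with the same replicate number correlated at r = 0.16, -0.08, -0.02 and 0.10. Pairs with other numbers ran from -0.322 to 0.202. Deviations from a mean of 4 libraries sum to 0, so this check cannot tell whether the numbers mark a batch. With the replicate number as a block 1881 genes were called, and adjusted p was 0.000675 for UGT2B4, 0.00214 for UGT2B10 and 0.0404 for SULT1A1. The block ended the calls of SLC35B3 (0.0782), ABCC4 (0.0682) and AHR (0.0550). Depth limits UGT2B15, UGT1A6 and UGT1A9, which rest on 0 to 32 reads per library. It also limits the control levels of UGT2B4 (4 to 17 reads), UGT1A1 (8 to 23 reads) and UGT2B11 (13 to 18 reads).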
